A study of Mus musculus with 2 samples.

Results

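Lyve1, Pdpn, Mmrn1, Reln, Nts, Itga9, Fgl2, Stab2, Marco and Mrc1 encode surface and secreted proteins by which lymphatic vessels are commonly recognised. They were chosen by symbol, and all 10 were found once each among the 28692 genes of the count tables. The tables came from single-cell RNA sequencing of CD31+ cells of the mesentery at P8, as 1 library for control and 1 for Flcn iΔEC mice. Each library pooled the cells of 3 mice of the C57BL/6 strain. Both groups had been injected repeatedly before P8 with 40 µg of 4-hydroxytamoxifen. In Flcn iΔEC mice the Cdh5-BAC-CreERT2 driver, which acts in the endothelium at large and not in lymphatic vessels alone, removed the floxed gene of folliculin; the Cre and flox status of the controls was not given in the sources used here. With 1 library per genotype no test was possible, so each ratio describes these libraries, and each 95% interval covers counting error only.

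Lymphatic capillaries take up fluid, cells and macromolecules from the tissue, collecting vessels with valves carry the lymph onward, and sinus endothelial cells line the channels of lymph nodes. Lymphatic endothelial cells (LECs) of these segments differ in their surface proteins. Lyve1 binds hyaluronan, Pdpn (podoplanin) is a mucin-like glycoprotein, Itga9 is an integrin subunit with a role in lymphatic valves, and Stab2, Marco and Mrc1 are endocytic receptors shared with sinusoidal endothelium or macrophages. Mmrn1 (multimerin 1), Reln (reelin) and Nts (neurotensin) are secreted, and Fgl2 is a fibrinogen-like protein with secreted and membrane forms.

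Pdpn and Fgl2 were the members with a higher level in the Flcn iΔEC library in the 3 LEC-like clusters and EC cluster 8, described further on, and Mmrn1 had the highest ratio of lymphatic to blood endothelial level of the 10 members in each library, so their promoters are shown, each from 250 bases before to 50 bases after the transcription start on GRCm38.p6. Of the 10 members, 9 had an entry in the RefSeq promoter table; Lyve1 had none. Capitals mark matches, on either strand, to 5 motifs of 6 letters: the E-box CACGTG, its variant CATGTG, the Sox core AACAAT, the Ets core CCGGAA and the TATA box TATAAA.
Pdpn, chr4:143299515-143299814, minus strand: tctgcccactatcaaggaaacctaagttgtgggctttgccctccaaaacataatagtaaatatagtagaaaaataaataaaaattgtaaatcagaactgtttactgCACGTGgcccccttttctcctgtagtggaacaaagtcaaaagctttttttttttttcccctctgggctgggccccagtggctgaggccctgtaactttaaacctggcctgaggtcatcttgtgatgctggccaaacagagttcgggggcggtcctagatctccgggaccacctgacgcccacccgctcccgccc
Mmrn1, chr6:60944067-60944366, plus strand: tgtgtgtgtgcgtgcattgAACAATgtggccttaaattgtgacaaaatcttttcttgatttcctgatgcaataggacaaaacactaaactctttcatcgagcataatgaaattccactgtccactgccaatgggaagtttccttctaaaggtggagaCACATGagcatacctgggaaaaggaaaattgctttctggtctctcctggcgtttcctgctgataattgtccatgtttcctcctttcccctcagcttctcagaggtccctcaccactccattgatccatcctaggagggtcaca
Fgl2, chr5:21372423-21372722, plus strand: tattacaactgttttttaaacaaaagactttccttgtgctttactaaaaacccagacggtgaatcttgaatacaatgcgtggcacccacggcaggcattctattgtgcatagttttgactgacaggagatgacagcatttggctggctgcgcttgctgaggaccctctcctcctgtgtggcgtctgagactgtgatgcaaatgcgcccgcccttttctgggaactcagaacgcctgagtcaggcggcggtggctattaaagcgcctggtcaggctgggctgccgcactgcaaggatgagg
The E-box began at position -144 from the start in Pdpn and, in the promoter of Reln, at position -71, and 7.15% of the 32851 promoters in the table held one. Mmrn1 held the Sox core at -231 and the E-box variant, read on the other strand as CACATG, at -93. The Sox core was in 10.7% of promoters, the E-box variant in 14.2%, the Ets core in 14.9% and the TATA box in 13.6%. None of the 5 motifs was found in these windows of Fgl2, Nts, Itga9 and Stab2. The windows of Mmrn1 and Itga9 follow the start RefSeq gives, which lies inside the gene's span in the annotation used for the coordinates that follow. A match describes the letters only.

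In the GRCm38 annotation all 10 members are protein-coding. Lyve1 lies on chromosome 7 at 110850607 to 110863239, Pdpn on chromosome 4 at 143267431 to 143299564, Mmrn1 on chromosome 6 at 60924976 to 60989378, and Reln on chromosome 5 at 21884454 to 22344702. Nts is on chromosome 10 at 102481756 to 102490486, Itga9 on chromosome 9 at 118606690 to 118901003, and Stab2 on chromosome 10 at 86841198 to 87008025. Marco spans 120474538 to 120505024 of chromosome 1, and Mrc1 spans 14229392 to 14332057 of chromosome 2, with the microRNA gene Mir511 inside it on the same strand. Fgl2, on chromosome 5 at 21372642 to 21378374, overlaps the protein-coding gene Ccdc146 on the opposite strand.

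The libraries held 6814 control and 4459 Flcn iΔEC cells with 64639756 and 60805779 unique molecular identifiers (UMIs, 1 per captured RNA molecule). Most CD31+ cells were leukocytes, and 651 control and 999 Flcn iΔEC cells formed the endothelial clusters, which were grouped again with the 10 members and their 31 partner genes left out. Genes of the sex chromosomes set the libraries apart: Xist had 9 UMIs in control and 63462 in Flcn iΔEC, and 4 Y-linked genes had 15535 and 17. Genotype and sex therefore cannot be told apart. Levels are UMIs summed over a group of cells, per 1000000 UMIs of that group (CPM). Flcn itself was low, at 16.4 CPM (10.7–24.0) in control versus 9.90 CPM (7.84–12.3) in Flcn iΔEC LEC-like cells, 26 and 79 UMIs; where these 3′ reads lie relative to the deleted part was not examined. In blood endothelial cells Flcn was at 9.35 CPM (7.46–11.6) and 10.2 CPM (8.57–12.1).

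Of the endothelial cells, 3 clusters passed the LEC markers and are called LEC-like, with 85 control and 307 Flcn iΔEC cells. Depth differed with the library, the median LEC-like cell having 14112 UMIs in control and 23105 in Flcn iΔEC. The capillary-LEC-like cluster (16 and 25 cells) had 7 of 7 capillary markers, a list that includes Ccl21a, Flt4 and Piezo2. The collecting-LEC-like cluster (23 and 122 cells) had 5 of 10 collecting and valve markers and was led by Aqp8, Slc41a1 and Sbspon. LEC cluster 2 (46 and 160 cells), led by Lcn2, Fgl2 and Lpl, had 5 of 7 capillary markers but the collecting marker Foxp2 among its leading genes and kept its number. A further cluster, EC cluster 8 (26 and 65 cells), held 5 of 12 sinus markers but had Dcn and Pf4, markers of other cell types, among its leading genes with Ccl2, Marco and C1ql2, so it too is called by its number. None of the 8 LEC markers reached the threshold of enrichment there, yet Prox1, the transcription factor of lymphatic identity, was at 221 CPM (188–259) in control versus 198 CPM (177–222) in Flcn iΔEC, against 732 CPM (691–775) and 445 CPM (430.0–459) in LEC-like cells. No member served as a marker in naming. The blood endothelial cells are the arterial (AEC-like), venous (VEC-like), capillary (capilEC-like) and high endothelial venule (HEV-like) cells together, 378 in control and 425 in Flcn iΔEC. EC clusters 5, 7, 11 and 12, with 153, 115, 31 and 21 cells, had low depth or were led by genes of the cell cycle, B cells or T cells and belong to neither side. They held between 0% of the UMIs of a member, for Marco, and 25.9%, for Nts in Flcn iΔEC. Ptprc, the leukocyte antigen CD45, was at 115 CPM (91.3–143) in control versus 48.8 CPM (38.4–61.1) in Flcn iΔEC cells of EC cluster 8, against 12.6 CPM (7.70–19.5) and 5.14 CPM (3.69–6.97) in LEC-like cells; its part in the results was not tested.

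The first question was which of these genes separate lymphatic from blood endothelium at this age. Of the 8 members with at least 50 summed UMIs in control LEC-like and blood endothelial cells, 7 were at least 4-fold higher in LEC-like cells, where 2.56% of the 10589 genes compared were. In Flcn iΔEC it was the same 7 of 10, where 3.16% of 11537 genes were. They were Lyve1, Pdpn, Mmrn1, Reln, Nts, Fgl2 and Mrc1. Itga9, Stab2 and Marco were outside that count. The members were chosen as lymphatic markers, with earlier results of these data known, so the count of 7 was in part fixed in advance.

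**Figure D1:**
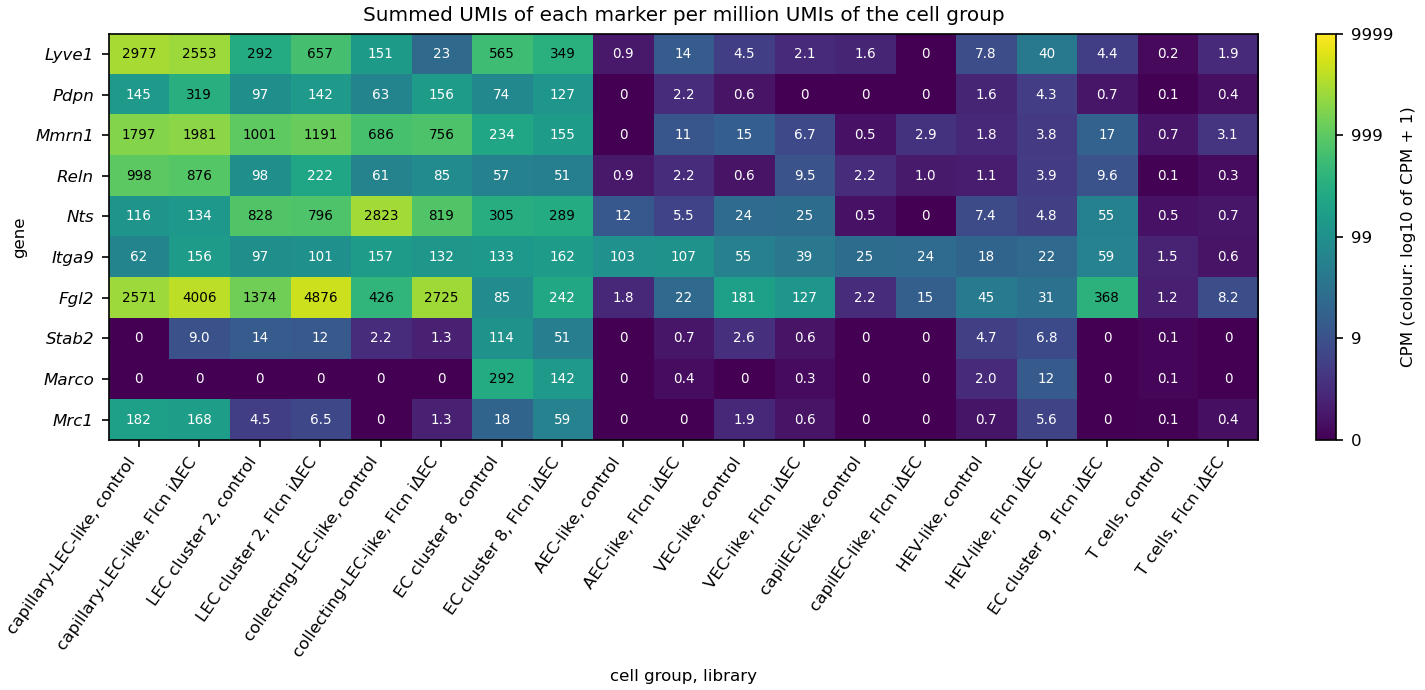
Level of each marker (rows, CPM; the colour is on a log10 scale) in each cell group and library (columns), as UMIs summed over the cells of the group. Mmrn1 is high in every LEC-like cluster and Lyve1, Reln and Mrc1 peak in capillary-LEC-like cells, while Marco is at 0 in the 3 LEC-like clusters and at 292 and 142 CPM in EC cluster 8.

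Among the secreted proteins, Mmrn1 separated lymphatic from blood endothelium by the largest ratio of the 10 members, 289 (204–424) in control and 183 (146–232) in Flcn iΔEC. Its level was 1031 CPM (982–1082) in control versus 1077 CPM (1055–1100.3) in Flcn iΔEC LEC-like cells, against 3.56 CPM (2.44–5.03) and 5.89 CPM (4.64–7.38) in blood endothelial cells. It had a UMI in 85 of 85 control and 305 of 307 Flcn iΔEC LEC-like cells. To compare shares at 1 depth, each cell was thinned to 5000 UMIs and the expected share over all draws was taken. Mmrn1 was then detected in 94.2% (86.6–98.2%) and 96.9% (94.3–98.6%) of LEC-like cells and in 0.845% and 2.06% of blood endothelial cells.

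T cells, which should lack most of these genes, gave a background level. In them the thinned shares of the 10 members were at most 3.25%, reached by Fgl2 in Flcn iΔEC, with median depths of 7348 and 7546.5 UMIs. Among the blood endothelial types, Lyve1, Pdpn, Mmrn1, Stab2, Marco and Mrc1 were each at or below 40.2 CPM in both libraries. The levels of Lyve1 and Marco in HEV-like cells rested on few cells. In the Flcn iΔEC library 5 of 129 HEV-like cells held 71.1% of the 235 Lyve1 UMIs and 98.6% of the 73 Marco UMIs.

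Itga9 was also at a lymphatic level in arterial cells. In control, blood endothelial cells held 43.4% of its UMIs and LEC-like cells 23.0%, and in Flcn iΔEC 27.5% and 44.8%. Its level was 109 CPM (93.4–127) in control versus 117 CPM (109–125) in Flcn iΔEC LEC-like cells, and 103 CPM (84.7–123) and 107 CPM (94.7–119.6) in AEC-like cells, so the intervals of lymphatic and arterial cells overlapped in each library. VEC-like cells were lower, with 54.7 and 38.6 CPM, and capilEC-like cells had 24.5 and 23.9 CPM. Fgl2 was the other member with a clear venous level: VEC-like cells had 181 CPM (160.2–203) in control versus 127 CPM (115–139.6) in Flcn iΔEC, while AEC-like cells had 2 and 61 UMIs.

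The LEC-like clusters were compared next. Of the 7 members with at least 50 summed UMIs, 5 were at least 2-fold higher in capillary-LEC-like than in collecting-LEC-like cells of the control library, where 5.69% of 2601 genes were, and 2, Nts and Itga9, were at least 2-fold lower, where 8.8% were. In Flcn iΔEC 5 of 8 were higher, where 5.6% of 7249 genes were, and Nts alone was lower, where 9.37% were. Lyve1, Pdpn, Mmrn1 and Reln were higher in both libraries, joined by Fgl2 in control and by Mrc1 in Flcn iΔEC.

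Lyve1 was highest in the capillary-LEC-like cells. Its level there was 2977 CPM (2763–3203) in control versus 2553 CPM (2422–2689) in Flcn iΔEC, with a UMI in 15 of 16 and 25 of 25 cells. LEC cluster 2 had 292 CPM (258–330.1) and 657 CPM (633–682), and collecting-LEC-like cells 151 CPM (117–191) and 22.9 CPM (17.9–28.9). The single cells of LEC cluster 2 were mixed, since 15 of 46 control and 109 of 160 Flcn iΔEC cells had a Lyve1 UMI. Thinned to 5000 UMIs, Lyve1 was in 24.2% (12.6–39.5%) of control versus 57.2% (49.1–65.0%) of Flcn iΔEC cells of that cluster, and in 8.80% and 6.63% of collecting-LEC-like cells.

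Reln and Mrc1 followed the same order. Reln, a glycoprotein secreted by lymphatic endothelium, was at 998 CPM (876–1132) and 876 CPM (800.1–957) in capillary-LEC-like cells of control and Flcn iΔEC, and at 61.1 CPM (40.6–88.4) and 84.5 CPM (74.6–95.4) in collecting-LEC-like cells, with LEC cluster 2 between them at 98.2 and 222 CPM. The mannose receptor Mrc1 was highest in the same cells. It had 44 and 94 UMIs there, at 182 CPM (132–245) and 168 CPM (136–206), against 0 and 4 UMIs in collecting-LEC-like cells and 4 and 28 in LEC cluster 2. With a floor of 3 counts for the control collecting-LEC-like cells, Mrc1 was at least 27.8-fold higher in the capillary-LEC-like cells, from fewer than the 50 UMIs needed to enter the count of members. Mrc1 and Lyve1 are also macrophage genes. Of 11 macrophage and dendritic markers, 9 were at 0 in capillary-LEC-like cells of each library, C1qa and Csf1r among them, and the list's summed level was 8.28 CPM in control versus 91.4 CPM in Flcn iΔEC; its part in the results was not tested.

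Nts, which encodes the peptide neurotensin, ran the other way. Its level was 2823 CPM (2671–2981) in collecting-LEC-like cells of control and 819 CPM (788–852) in those of Flcn iΔEC, against 116 CPM (77.0–168) and 134 CPM (106–168) in capillary-LEC-like cells. In LEC cluster 2 it was at 828 and 796 CPM. It was uneven among single cells. In collecting-LEC-like cells of control 18 of 23 cells had a UMI, the median was 17.5 (quartiles 1.39 and 34.4) UMIs per 10000, and 5 cells held 64.2% of its UMIs.

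Pdpn, by contrast, was highest in the capillary-LEC-like cells but differed by less than Lyve1 and Reln between the clusters. It ranged from 63.3 CPM (42.4–90.9) to 145 CPM (101–202) in control and from 142 CPM (131–154) to 319 CPM (274–369) in Flcn iΔEC. Between collecting-LEC-like cells and LEC cluster 2 the ratio of the second to the first was 1.53 (0.996–2.42) in control and 0.913 (0.809–1.03) in Flcn iΔEC, and both intervals included 1. In blood endothelial cells Pdpn had 8 UMIs in control and 31 in Flcn iΔEC.

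**Figure D2:**
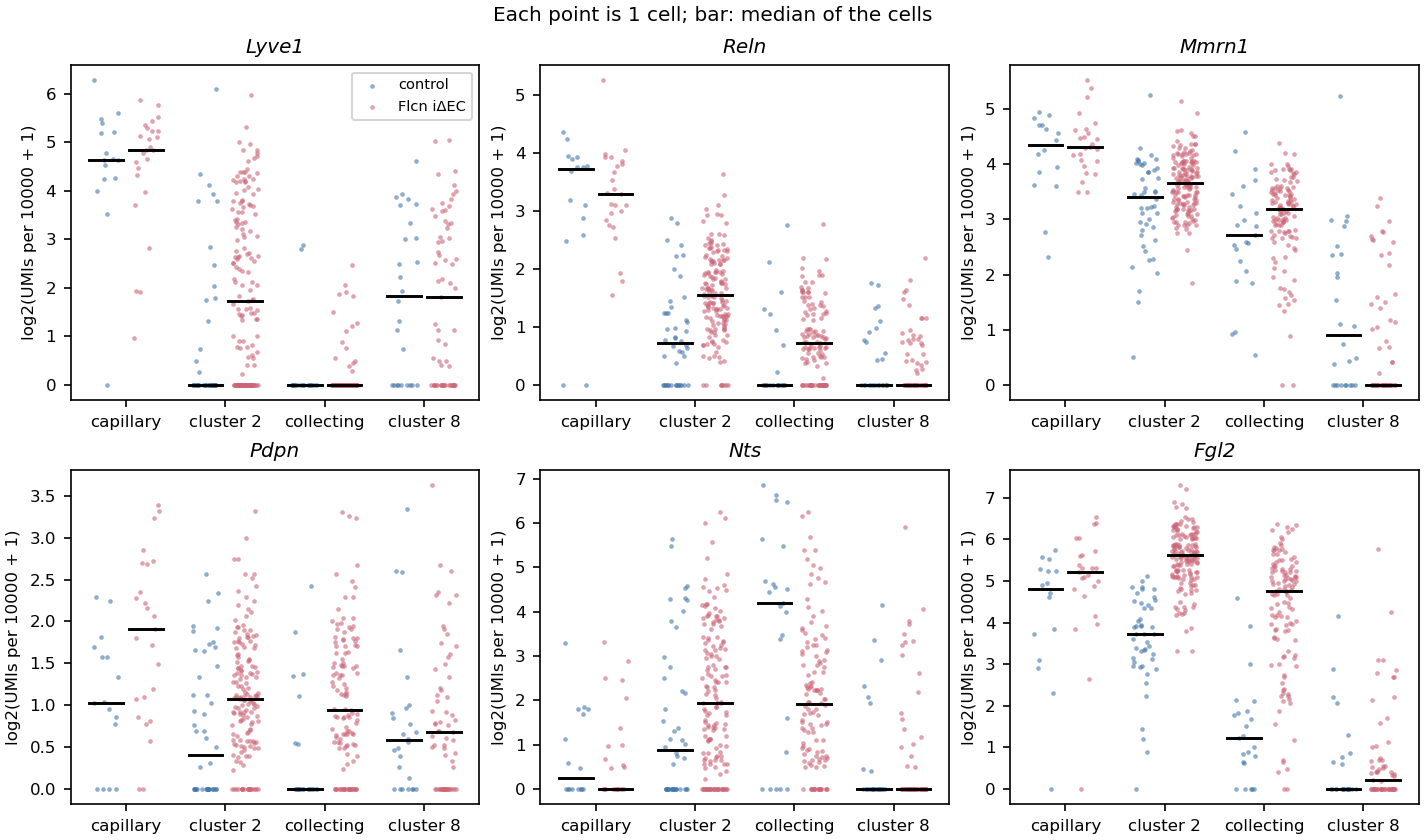
Single cells of the 3 LEC-like clusters and EC cluster 8 (x axis), with the log2 of UMIs per 10000 plus 1 on the y axis for 6 of the markers. Each point is 1 cell, blue for control and red for Flcn iΔEC, and the bar is the median. Fgl2 lies higher in Flcn iΔEC in LEC cluster 2 and collecting-LEC-like cells, and Lyve1 runs from 0 to high values within LEC cluster 2.

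EC cluster 8 carried the scavenger receptors Stab2 and Marco. Of the 10 members, 2, Stab2 and Marco, were at least 2-fold higher there than in LEC-like cells of the control library, where 6.58% of 6349 genes were, and Mmrn1, Reln, Nts and Fgl2 were at least 2-fold lower, where 11.6% were. In Flcn iΔEC, 3 of 10 were higher, Mrc1 in addition, where 7.74% of 9702 genes were, and the same 4 were lower, where 8.96% were. Marco was among the genes that lead this cluster by fold, though it was not used to form it.

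Marco, a scavenger receptor of macrophages and of some sinus endothelium, had no UMI in LEC-like cells, which with a floor of 3 counts allows up to 1.89 CPM in control and up to 0.376 CPM in the other library. In EC cluster 8 it was at 292 CPM (254–335) and 142 CPM (124–163), at least 155-fold and 379-fold higher. These UMIs came from 6 of 26 control and 19 of 65 Flcn iΔEC cells, and 1 control cell held 97 of 206 UMIs. Stab2, an endocytic hyaluronan receptor, was spread over more cells: 18 of 26 in control and 32 of 65 in Flcn iΔEC. Its level was 114 CPM (90.0–141) and 50.7 CPM (40.1–63.3), against 8.20 CPM (4.36–14.0) and 7.65 CPM (5.85–9.82) in LEC-like cells. Of the UMIs of each library, EC cluster 8 held 80.2% of Marco and 43.2% of Stab2 in control, and 70.0% and 33.3% in Flcn iΔEC. It held 9.49% of Mrc1 in control and 24.3% in Flcn iΔEC.

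Lyve1 in EC cluster 8 was within the range of the LEC-like clusters, at 565 CPM (511–623) in control versus 349 CPM (319.6–379) in Flcn iΔEC. The cells with Lyve1 and those with Mmrn1 were in part different cells. After thinning, Mmrn1 was in 22.6% of cells with Lyve1 and in 51.2% of cells without it in Flcn iΔEC (45 cells), and in 47.6% and 72.6% in control (19 cells). Marco went with Lyve1: it was in 33.1% of cells with Lyve1 and in 1.28% of cells without it in control, and in 39.0% and 5.39% in Flcn iΔEC. Marco and Mmrn1 were found together in 4.70% of control versus 0.460% of Flcn iΔEC cells. Nts was in 14.2% of control cells with Lyve1 and 48.2% of those without. Mrc1 was in 35.6% of Flcn iΔEC cells with Lyve1 and 8.43% of those without. Fgl2 was in 62.7% of Flcn iΔEC cells with Nts and 24.1% of those without. The pairs of Nts with Lyve1, Mrc1 with Lyve1 and Fgl2 with Nts are each given for the named library only.

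**Figure D3:**
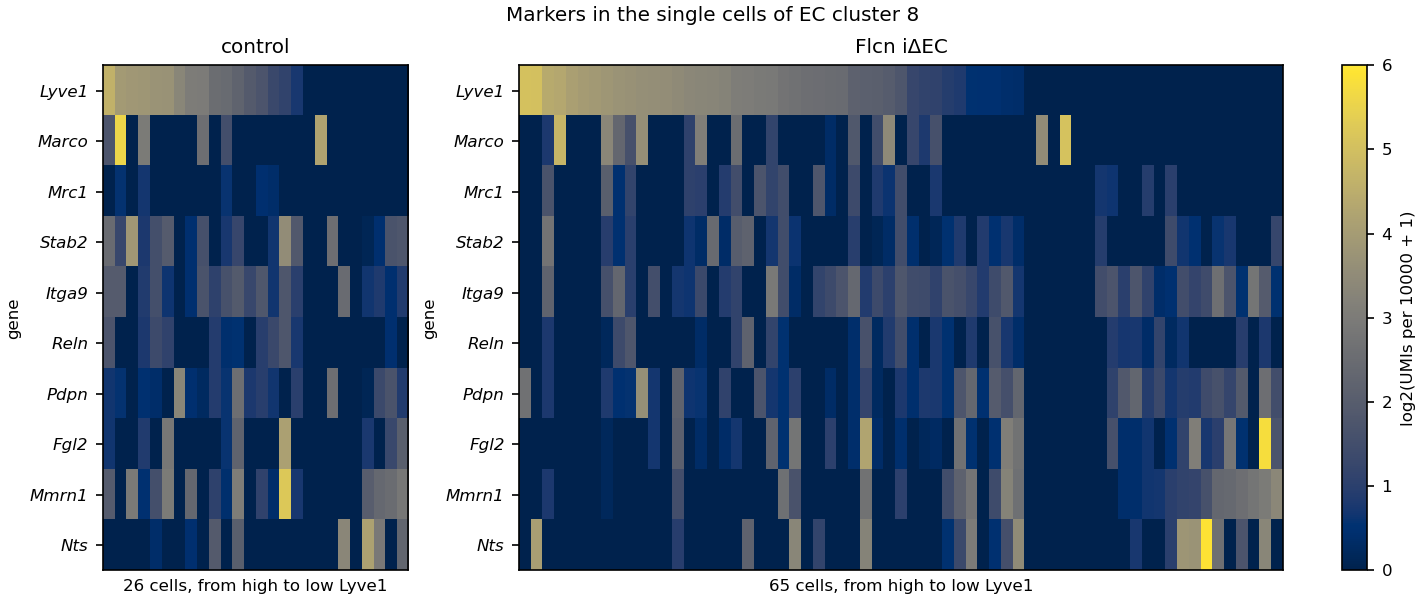
Each column is 1 cell of EC cluster 8, ordered from high to low Lyve1 and, among cells with equal Lyve1, from low to high Mmrn1; each row is a marker, and the colour is the log2 of UMIs per 10000 plus 1. Marco and Mrc1 lie mostly among the cells with Lyve1 on the left, and in Flcn iΔEC Mmrn1 is found more often among the cells with little or no Lyve1 on the right.

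Co-detection was also taken over the LEC-like cells together. Mmrn1 and Fgl2 were found together in 80.4% (70.0–88.5%) of 79 control and 95.3% (92.2–97.4%) of 303 Flcn iΔEC cells with at least 5000 UMIs, the highest of the 45 pairs in each library. Lyve1 and Pdpn, antigens commonly used to stain lymphatic vessels, were found together in 18.0% (10.3–28.3%) and 21.8% (17.2–26.8%). Among control cells Pdpn was in 55.6% of those with Lyve1 and 19.8% of those without, and in Flcn iΔEC in 54.7% and 42.2%. Reln was in 79.3% of control cells with Lyve1 and 23.9% of those without, and Mrc1 in 29.8% and 0.758%. Nts and Reln tended to lie in different control cells, Nts being in 40.8% of cells with Reln and 59.6% of cells without. Itga9 was as frequent with Lyve1 as without, 38.9% and 41.4% in control. The pairs of Reln, Mrc1 and Itga9 with Lyve1 and of Nts with Reln are given for control only. The LEC-like clusters differ in their levels of Lyve1, Reln, Mrc1 and Nts, and the part of that mix in these shares was not tested. The median number of members with a UMI in an unthinned cell was 5 in control and 6 in Flcn iΔEC LEC-like cells, and 1 in blood endothelial cells of each library.

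**Figure D4:**
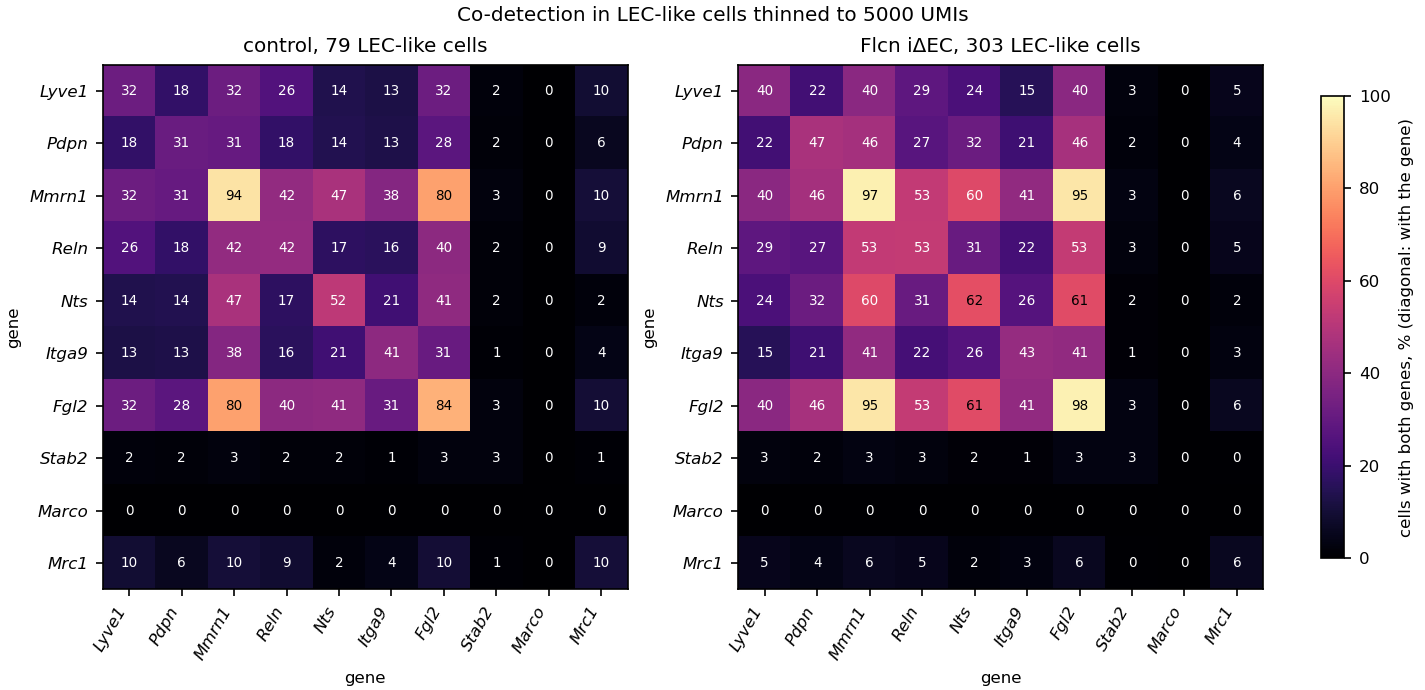
Percent of LEC-like cells with at least 1 UMI of both genes (rows and columns) after thinning to 5000 UMIs, and of the single gene on the diagonal, for 79 control and 303 Flcn iΔEC cells. The pair of Mmrn1 and Fgl2 is the highest, at 80.4% in control and 95.3% in Flcn iΔEC, and Marco is at 0 throughout.

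The libraries were then compared within the LEC-like clusters and EC cluster 8, to see how the markers stood after deletion of Flcn. In the LEC-like cells as 1 group, 1 of the 9 members with at least 50 summed UMIs, Fgl2, was at least 2-fold higher in Flcn iΔEC, where 4.26% of the 9633 genes compared were, and 0 were at least 2-fold lower, where 6.38% were. Fgl2 was at 1283 CPM (1227–1339.6) in control versus 3979 CPM (3936–4024) in Flcn iΔEC, a ratio of 3.10 (2.97–3.25). The next was Pdpn at 1.69 (1.42–2.01), and the lowest were Mrc1 at 0.522 (0.372–0.744) and Nts at 0.586 (0.557–0.616). Mmrn1 was at 1.04 (0.991–1.10), Reln at 0.954 (0.850–1.07), Itga9 at 1.07 (0.910–1.27) and Lyve1 at 0.823 (0.769–0.881). The libraries held different shares of the 3 clusters, and with the control's cluster shares given to both, an alternative chosen after seeing the data, the ratio was 1.11 for Lyve1, 0.968 for Mrc1, 1.19 for Reln and 0.549 for Nts.

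In capillary-LEC-like cells 2 of 8 members, Pdpn and Itga9, were at least 2-fold higher in Flcn iΔEC, where 4.87% of 2689 genes were, and 0 were lower, where 4.2% were. In LEC cluster 2 they were 3 of 8, Lyve1, Reln and Fgl2, where 4.82% of 8119 genes were, and 0 were lower, where 6.32% were. In collecting-LEC-like cells Pdpn and Fgl2 were higher, 2 of 7 where 6.26% of 7225 genes were, and Lyve1 and Nts lower, where 6.8% were. In EC cluster 8 Fgl2 and Mrc1 were higher, 2 of 10 where 3.67% of 5989 genes were, and Stab2 and Marco lower, where 4.59% were. Single cells decided some of these calls. Without the cell with most UMIs of the gene in each library, a comparison added after seeing the data, Lyve1 in collecting-LEC-like cells (0.731 (0.359–1.68)) and Marco in EC cluster 8 (0.677 (0.527–0.872)) were no longer past 2-fold, while Reln in collecting-LEC-like cells (2.14 (1.25–3.98)) and Nts in EC cluster 8 (2.36 (1.72–3.30)) were. Fgl2 stayed past 2-fold in LEC cluster 2, collecting-LEC-like cells and EC cluster 8.

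**Figure D5:**
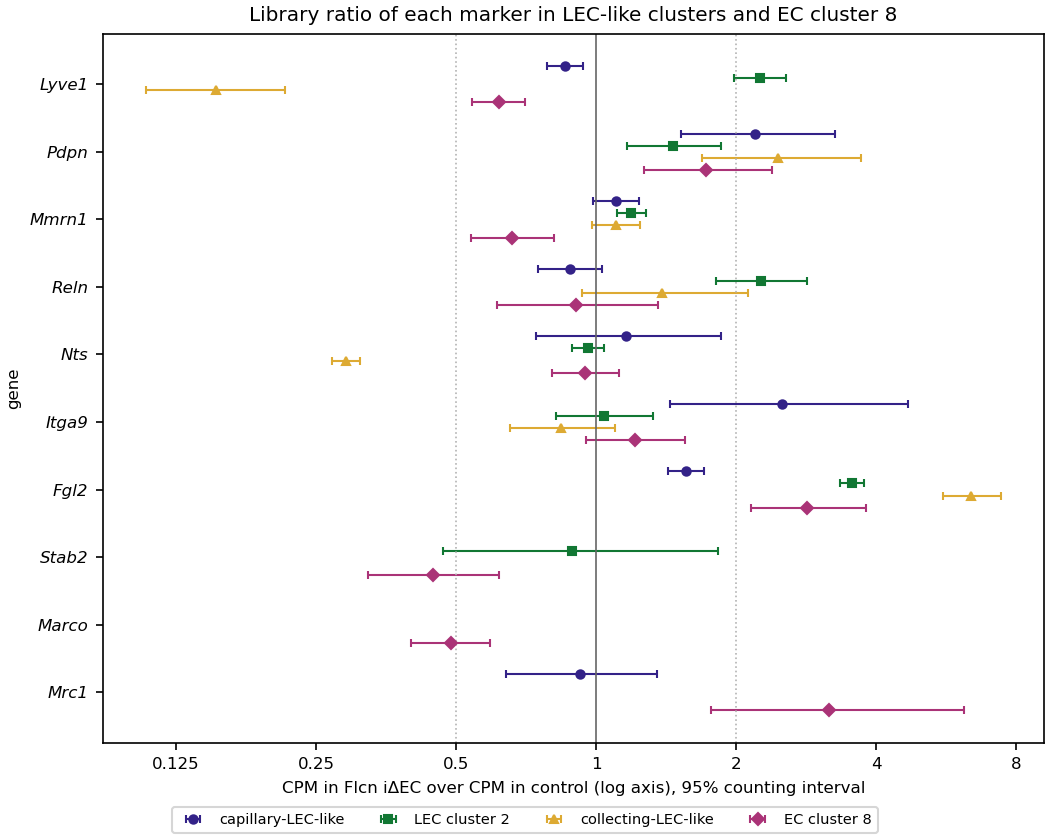
Ratio of the CPM in Flcn iΔEC to that in control (x axis, log scale) for each marker in the 3 LEC-like clusters and EC cluster 8, with 95% counting intervals; ratios are drawn where both libraries had over 3 UMIs and at least 50 together. The dotted lines stand at 0.5 and 2. Fgl2 and Pdpn lie to the right of 1 in all 4 clusters, and Lyve1 lies on either side.

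Fgl2 was higher in the Flcn iΔEC library in each of the 3 LEC-like clusters and in EC cluster 8. Its ratio was 1.56 (1.42–1.71) in capillary-LEC-like cells, 3.55 (3.35–3.76) in LEC cluster 2, 6.40 (5.55–7.42) in collecting-LEC-like cells and 2.84 (2.16–3.80) in EC cluster 8. Among single cells the median went from 12.2 (quartiles 7.42 and 20.2) to 48.0 (quartiles 34.8 and 64.9) UMIs per 10000 in LEC cluster 2, where the upper quartile of control lay below the lower quartile of Flcn iΔEC. In collecting-LEC-like cells it went from 1.34 (quartiles 0.562 and 2.60) to 26.2 (quartiles 11.3 and 38.3). There 1 control cell held 134 of the 195 UMIs, and without the highest cell of each library the ratio was 15.9 (12.4–20.9). In EC cluster 8, 1 Flcn iΔEC cell held 149 of 372 UMIs, and the ratio without it and its control counterpart was 2.23 (1.62–3.14). In blood endothelial cells pooled the ratio was 0.961 (0.854–1.08), but their types differed. In VEC-like cells it was 0.702 (0.602–0.820). AEC-like cells had 1.80 CPM (0.218–6.51) in control versus 22.3 CPM (17.0–28.6) in Flcn iΔEC, where 1 cell held 45 of the 61 UMIs, and HEV-like cells 44.8 CPM (38.9–51.5) versus 31.1 CPM (26.8–36.0). Whether the lymphatic and blood ratios differ was not tested between animals.

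Pdpn was higher in Flcn iΔEC in the same 4 clusters. The ratio was 2.20 (1.52–3.26) in capillary-LEC-like cells, 1.46 (1.17–1.86) in LEC cluster 2, 2.46 (1.69–3.71) in collecting-LEC-like cells and 1.73 (1.27–2.39) in EC cluster 8. The share of collecting-LEC-like cells with Pdpn after thinning was 17.7% (4.92–39.7%) in control versus 43.8% (34.9–53.1%) in Flcn iΔEC. In capillary-LEC-like cells it was 51.6% (23.3–79.1%) and 74.3% (52.0–90.0%), so the intervals of both pairs of shares overlapped.

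Nts was lower in Flcn iΔEC in collecting-LEC-like cells, with a ratio of 0.290 (0.271–0.311). The median cell went from 17.5 (quartiles 1.39 and 34.4) to 2.77 (quartiles 0.671 and 7.44) UMIs per 10000. The thinned share of cells with Nts was 77.9% (55.3–92.5%) and 64.9% (55.7–73.3%), so the level differed more than the share. In LEC cluster 2 the ratio was 0.961 (0.887–1.04), and in capillary-LEC-like cells 1.16 (0.742–1.86), and both intervals included 1. In EC cluster 8 it was 0.948 (0.804–1.12), but 1 control cell held 169 of 215 UMIs and 1 Flcn iΔEC cell 174 of 445, and without them the ratio was 2.36 (1.72–3.30).

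Lyve1 and Reln were both higher in Flcn iΔEC in LEC cluster 2. The ratios there were 2.25 (1.98–2.56) and 2.26 (1.81–2.84), and the thinned share of cells with Reln was 37.8% (23.7–53.7%) in control versus 63.1% (55.1–70.6%) in Flcn iΔEC. In capillary-LEC-like cells the ratios were 0.858 (0.783–0.939) and 0.878 (0.751–1.03). Without the highest cell of each library they were 0.927 (0.837–1.03) and 0.964 (0.812–1.15), and both intervals included 1. In collecting-LEC-like cells the Lyve1 ratio of 0.152 (0.108–0.215) rested on 1 control cell with 60 of the 69 UMIs, and without the highest cell of each library it was 0.731 (0.359–1.68). For Reln in these cells 1 control cell held 14 of 28 UMIs, and the ratio moved from 1.38 (0.935–2.12) to 2.14 (1.25–3.98). In LEC cluster 2 the capillary marker Ccl21a also went from 1378 CPM in control to 4423 CPM in Flcn iΔEC. The capillary marker Sema3d and the collecting markers Foxc2 and Foxp2 were at least 2-fold lower there. Whether the mix of cells within LEC cluster 2 differed between the libraries was not tested.

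Mmrn1 was closer to even between the libraries than Fgl2 and Pdpn in the 3 LEC-like clusters. The Mmrn1 ratio was 1.10 (0.986–1.23) in capillary-LEC-like cells, 1.19 (1.11–1.28) in LEC cluster 2 and 1.10 (0.979–1.24) in collecting-LEC-like cells, and 0.661 (0.540–0.811) in EC cluster 8. With the highest cell of each library left out, it was 1.15 (1.02–1.31), 1.21 (1.13–1.31), 1.26 (1.10–1.46) and 0.614 (0.491–0.770) in the same order. None of these intervals included 1. The Itga9 ratio had an interval including 1 in LEC cluster 2, collecting-LEC-like cells and EC cluster 8, and was 2.51 (1.44–4.68) in capillary-LEC-like cells, from 15 and 87 UMIs. Of the endocytic receptors in EC cluster 8, Stab2 had a ratio of 0.447 (0.323–0.618), Marco of 0.487 (0.401–0.592) and Mrc1 of 3.17 (1.76–6.19). Without the highest cell of each library they were 0.429 (0.304–0.607), 0.677 (0.527–0.872) and 4.06 (1.87–10.5). The thinned share of cells with Marco was 22.5% (6.84–47.1%) in control versus 21.8% (10.9–36.6%) in Flcn iΔEC.

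EC cluster 9 held 44 Flcn iΔEC cells and 0 control cells and was led by hemoglobin genes, H19 and Meg3. Its summed level of the 6 erythroid markers was 11850.0 CPM, and the part of red blood cell RNA in it was not tested. The transcription factor Prox1 was at 500.0 CPM (463–539) in these cells, close to the 445 CPM of Flcn iΔEC LEC-like cells, whereas each member except Marco, at 0 in both, was lower than in those cells. Lyve1 had 6 UMIs and Pdpn 1, at 4.43 CPM (1.63–9.64) and 0.739 CPM (0.0187–4.11), and Stab2, Marco and Mrc1 had 0, which allows up to 2.22 CPM each. Mmrn1 was at 17.0 CPM (10.8–25.5) and Reln at 9.60 CPM (5.11–16.4). Fgl2 was at 368 CPM (336–402), Itga9 at 59.1 CPM (46.8–73.5) and Nts at 55.4 CPM (43.6–69.4). Beside VEC-like cells of the same library, 3 members had at least 50 summed UMIs. Of them 2 were at least 2-fold higher, where 3.37% of 8008 genes were. They were Fgl2, at 2.90 (2.54–3.31) times, and Nts, at 2.21 (1.59–3.05) times, while Itga9 was at 1.53 (1.14–2.04). With fewer UMIs, Mmrn1 was at 2.52 (1.34–4.74) times.

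The 24 other lymphatic genes and the 31 partner genes of the members show what the members stood among. Of the other lymphatic genes, 23 had enough UMIs in control LEC-like and blood endothelial cells. In LEC-like cells 14 of them were at least 4-fold higher, where 2.56% of 10589 genes were. Only 1, the growth factor gene Vegfc, was at least 4-fold lower, where 8.38% were. The list holds the 8 LEC markers and some subtype markers used in naming, so the count of 14 was in part fixed in advance. In LEC-like cells 2 of 23 were at least 2-fold higher in Flcn iΔEC, Angpt2 and Vegfc, where 4.26% of 9633 genes were. At least 2-fold lower were 4, Foxc2, Efnb2, Ackr4 and Foxp2, where 6.38% were. The median log2 ratio of the 23 was -0.22, beside -0.19 over all genes compared. Angpt2, a ligand of the Tie2 receptor, went from 58.6 to 262 CPM, and Ackr4, a scavenging receptor for the chemokines CCL19 and CCL21, from 263 CPM (238–289) to 3.26 CPM (2.13–4.78). Foxc2, a transcription factor of lymphatic valves, went from 187 to 54.8 CPM. Prox1 was at 732 and 445 CPM, a ratio of 0.607 (0.568–0.649).

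Of the partner genes, 15 had enough UMIs in LEC-like cells of both libraries, and 0 were at least 2-fold higher and 5 at least 2-fold lower in Flcn iΔEC, where 6.38% of all genes compared were lower. Their median log2 ratio was -0.49, beside -0.19 over all genes. Among ligands, Fn1, the fibronectin gene, whose product with the EIIIA domain binds integrin α9β1, was at 1028 CPM (979–1079) in control versus 404 CPM (390.4–418) in Flcn iΔEC, and Tnc, another ligand of it, at 18.9 and 6.52 CPM. The others were the hyaluronidase Hyal1, the relative of multimerin Mmrn2, and Stab1, the relative of Stab2, at 534 CPM (499–571) and 221 CPM (211–231). Vldlr, a receptor of reelin, was at 88.9 CPM (74.8–105) and 155 CPM (146–163), a ratio of 1.74 (1.46–2.08), and Ccl21a, whose chemokine binds podoplanin, at 3915 CPM (3818–4014) and 5108 CPM (5058–5158). Dab1, the intracellular adaptor of reelin signalling, had 0 UMIs in LEC-like cells of either library.

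Over 17 groups of endothelial cells by type and library with at least 30 cells, the gene outside the members whose level was most like each member was named by Pearson correlation of log2(CPM + 1) among 10270 genes; these groups share libraries and depth, and the value is a description. The groups left out for their size include both of the capillary-LEC-like cells, where Lyve1, Reln and Mrc1 were highest, and those of the collecting-LEC-like cells and EC cluster 8 of control. The gene was Gm11837 for Lyve1 (0.892), Hoxd10 for Pdpn (0.943), Slc45a3 for Mmrn1 (0.971), Fst for Reln (0.959) and Dtx1 for Nts (0.943). For Fgl2 it was Vldlr (0.962), for Itga9 Ehd1 (0.936), for Stab2 Tnc (0.838), for Marco Rps3 (0.918) and for Mrc1 Dnajb14 (0.830). Thy1 was among the 3 most alike for both Lyve1 and Pdpn, and Slc45a3 for Lyve1, Mmrn1 and Nts. Among the members themselves the highest value was between Mmrn1 and Reln, at 0.938, and Lyve1 was more like Pdpn, at 0.910, than like any gene outside the members.

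Outside the endothelium the members had levels of their own. A cluster of 147 cells led by the neutrophil genes S100a9 and S100a8 held 117 Mrc1 UMIs in 9 cells, 8 of them with C1qa, the complement gene of macrophages, and 45 Lyve1 UMIs in 5 cells, of which 1 cell held 34. In the cluster led by the collagen gene Col1a1, with 62 cells, Pdpn was in 23 cells with 101 UMIs at 109 CPM, and Prox1 was in 1 of those 23. Reln was in 19 of 48 cells of a cluster led by Vpreb1, a gene of B cell precursors, at 141 CPM from 39 UMIs. Stab2 was in 15 of 280 cells of a cluster led by Ccl5 and Trdc, with 49 UMIs. Of all UMIs of each library, cells outside the endothelium held 1.58% of Lyve1 in control and 1.57% in Flcn iΔEC, but 32.1% and 27.0% of Mrc1.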

How the data were processed

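CD31+ cells of the mesentery were sequenced by droplet (Chromium 3′ v3), 1 library per genotype. The authors deposited UMI counts per gene and cell, made per the labels with Cell Ranger 3.0 on mm10 (3.0.1 in the matrix header). Cells were taken as deposited, 11273 in all. The members and gene lists were chosen with earlier results of these data known, and the thresholds for names were chosen once the clusters were known, so names may differ from the study's.

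Cells were clustered in R 4.3.3 with Seurat 5.3.0 after integration of the libraries (2000 variable features, 30 dimensions, resolution 0.8), with the members and partner genes left out. Endothelial clusters had 6 or more of 8 pan-endothelial markers, each found in 20% or more of the cells, and were clustered again. LEC-like clusters had at least 4 of 8 LEC markers, and a subtype at least 3 markers, each 2-fold enriched. No share of cells was required of these markers. Doublets were called with scanpy 1.11.5 (142 in control, 37 in Flcn iΔEC) and kept; leaving them out was an alternative. Of all barcodes 6 were shared by the libraries, 0 of them in LEC-like cells.

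Counts were summed per cluster and library in Python 3.11.15 (numpy 2.4.6, pandas 2.3.3). Levels have exact Poisson, ratios exact conditional and shares Clopper-Pearson 95% intervals (scipy 1.17.1), for counting error only. Groups at 0 were set at a floor of 3 counts. A gene entered the counts of genes past a fold only with 50 UMIs over both groups, and was counted past 2-fold, or 4-fold for lymphatic over blood. All 10 members are named; other genes are those of the 2 lists where a count covers them, the 3 most alike to each member, markers that check a cluster, and Flcn. The scripts were tested on simulated data.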

Additional observations from a re-analysis of the deposited data

Results flagged for a closer look

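Some ratios of Flcn iΔEC to control lay on opposite sides of 1 in different groups of cells, each with a counting interval that left out 1; with 1 library per genotype, none of these differences was tested between animals. Lyve1, the hyaluronan receptor, had a ratio of 2.25 in LEC cluster 2 and 4.22 in blood endothelial cells, but 0.858 in capillary-LEC-like cells, 0.152 in collecting-LEC-like cells and 0.617 in EC cluster 8. In the blood endothelium of Flcn iΔEC, 5 cells held 64.9% of its 279 UMIs, and VEC-like cells had 7 UMIs in control and 7 in Flcn iΔEC. In collecting-LEC-like cells 60 of the 69 control UMIs of Lyve1 came from 1 cell, and without the highest cell of each library the ratio was 0.731 (0.359–1.68). Left out in the same way, the Lyve1 ratio was 0.927 (0.837–1.03) in capillary-LEC-like cells, with an interval including 1. It was 2.63 (2.28–3.04) in LEC cluster 2 and 0.689 (0.591–0.804) in EC cluster 8. Mmrn1, the multimerin gene, had a ratio of 1.19 in LEC cluster 2 and 1.65 in blood endothelial cells, but 0.661 in EC cluster 8. Within the blood endothelium, the Mmrn1 ratio of VEC-like cells was 0.456 (0.242–0.855), from 23 UMIs in control and 22 in Flcn iΔEC. Marco, the scavenger receptor, had a ratio of 5.80 in blood endothelial cells and 0.487 in EC cluster 8. Its Flcn iΔEC UMIs in the blood endothelium came mostly from HEV-like cells, where 6 of 129 cells had any.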

How the results depend on the processing

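No paired analysis was possible because each genotype had 1 library and the labels carry no replicate numbers. The counts of members past a fold in LEC-like over blood endothelial cells, in Flcn iΔEC over control LEC-like cells and in capillary-LEC-like over collecting-LEC-like cells were within 1.5 times their values under the alternatives run for them. The counts between libraries within single clusters were not recomputed as such, but leaving out the highest cell took Lyve1 in collecting-LEC-like cells from 0.152 to 0.731 and Marco in EC cluster 8 from 0.487 to 0.677, so that the lower members fell from 2 to 1 in each. Co-detection moved with depth: Lyve1 with Pdpn was in 8.70% of control and 9.57% of Flcn iΔEC LEC-like cells thinned to 2000 UMIs, 30.6% and 44.3% unthinned, and 7.46% and 7.92% when 2 UMIs were needed. Mmrn1 with Fgl2 was in 59.8% and 81.0% at 2000 UMIs, 91.8% and 98.4% unthinned, and 66.2% and 89.2% with 2 UMIs. Without integration no collecting-LEC-like cluster formed, so capillary over collecting has no value there. EC cluster 8 also changed: of its 91 cells, the matching cluster held 61 without integration and 66 with the members and partner genes kept. It held 72 with a filter on cells, 87 with doublets left out and 91 at the higher resolution. The levels, co-detection and ratios to LEC-like cells in EC cluster 8 were not recomputed under these alternatives. The Lyve1 ratio of capillary-LEC-like to collecting-LEC-like cells in Flcn iΔEC was 111, and 44.4 with a filter on cells. In LEC-like cells the Flcn iΔEC to control ratio of Lyve1 was 0.763 with cells weighted equally and 1.11 with the control's cluster shares, alternatives chosen after seeing the data, as was leaving out the highest cell of each library. Intervals of capillary-LEC-like cells rest on 16 and 25 cells.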
